A study of Homo sapiens with 10 samples.

Results

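This is a comparison of dye-retaining tumour cells with unsorted cells: 6 of the 10 arrays of the series, chosen by their titles. Of these, 4 hold sorted non-side population cells, lettered a to d, and 2 hold the unsorted population, lettered a and b. The non-side population is the bulk of a culture that stays bright after staining with the DNA dye Hoechst, as opposed to the rare side population that pumps the dye out. The cells are established gastric adenocarcinoma lines grown in serum-containing medium. The origin label names AGS and MKN 45 for each of the 6 arrays, and the source label names AGS. No genotype change, drug or time point separates the groups, so what differs by label is the sort alone. These labels do not resolve which line or mix of lines an array holds, so line make-up cannot be told apart from the sort. The labels do not say whether unsorted cells were also stained or passed through the sorter, nor whether they came from the sorted cultures. The population, the handling and the culture therefore cannot be told apart. The labels do not say that replicates came from separate cultures, and the p-values then measure only the spread between these arrays.

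Interferon-stimulated genes are switched on by STAT complexes downstream of interferon receptors and encode antiviral proteins. Cholesterol synthesis runs from acetyl-CoA through mevalonate, squalene and lanosterol, and its enzymes are transcribed together by SREBP factors when membrane sterol is low. Immediate early genes encode transcription factors and feedback proteins that are induced within minutes by growth factors, detachment or stress.

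Each array carried 54675 probe sets, read as linear intensities that had already been scaled to a common trimmed mean. Each gene was read from 1 probe set, the one of highest mean intensity over the 6 arrays. Limma tested the brighter 9888 of 19775 genes, those whose mean log2 value reached an intensity of 147.7. A gene is called at a Benjamini-Hochberg adjusted p under 0.05 over all genes tested, and fold changes are log2 differences, non-side population minus unsorted, with the standard error (SE) of the fit (n = 4 and 2). The unsorted arrays were the more alike: across genes, which are not independent replicates, they correlated at 0.987, against 0.882 to 0.965 among the non-side population arrays and 0.895 to 0.938 between groups. The first principal component (46.5% of the variance) placed non-side population b at -50.8 and c at 24.1, and the unsorted arrays at 30.6 and 22.9. On the second (33.5%) unsorted cells lay at -29.5 and -27.5, and the non-side population between -9.5 and 40.5.

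Controls for the 5' end and the middle of 18S ribosomal RNA were far higher in non-side population a, b and d than in the other arrays. The array control that probes the 5' end of 18S ribosomal RNA read 33704, 28250.1, 563 and 22182.4 in non-side population a to d, and 274.6 and 828.3 in unsorted a and b. The control for its middle read 25720.1, 20716.3, 740.7 and 19314 against 359.5 and 981.6. Replicate c was thus the sorted array with signals in the range of the unsorted arrays, and its own value is given below for the groups described at length. The control for the 3' end of the same RNA read 21976.4 to 45267.4 on the 6 arrays. The median intensity of an array was 71.8 to 85.4 in the non-side population and 60.9 and 58.7 in unsorted cells. The part of these signals in the results was not tested. The ratio of 3' to 5' signal was 0.987 to 1.23 for actin and 0.864 to 1.06 for GAPDH on the 6 arrays.

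The arrays carried the markers of a gastric epithelial line. Of 11 epithelial markers 9 passed the filter, and EPCAM, an epithelial adhesion molecule, read 17745.2 to 29016.7 in the non-side population and 23169.5 and 23454.5 in unsorted cells. Of 8 blood and endothelial markers measured 7 lay below the filter, and the leukocyte gene PTPRC read 34.4 at most. Summed over these 8 genes the level was 337.2 to 639.2 in the non-side population and 346.2 to 442.5 in unsorted cells. Of 20 mesenchymal markers 6 passed, with a sum of 12082.7 to 27028.5 against 13436.6 and 13623.7.

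Called interferon-stimulated and immediate early genes were higher in the non-side population, and called cholesterol synthesis genes were lower. Limma called 197 of 9888 genes (1.99%), 143 higher (1.45%) and 54 lower (0.546%) in the non-side population. The called genes changed by at least 1.09 log2 units, with a median of 1.77 for those that rose and -1.54 for those that fell. The median of the 9888 genes was -0.02, and 1799 of them (18.2%) had an unadjusted p under 0.05. Of the genes that rose, 47 averaged below the filter in unsorted cells and were tested through the sorted arrays, which are 4 of the 6 in the filter mean. Of those that fell, 5 averaged below it in the sorted arrays. In 1499 genes (15.2%) every non-side population array lay above both unsorted arrays, and in 1646 (16.6%) every one lay below. The 197 called genes were among these. Another probe set above the filter existed for 89 of the called genes, and 20 had at least 1 such probe set of opposite sign.

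**Figure D1:**
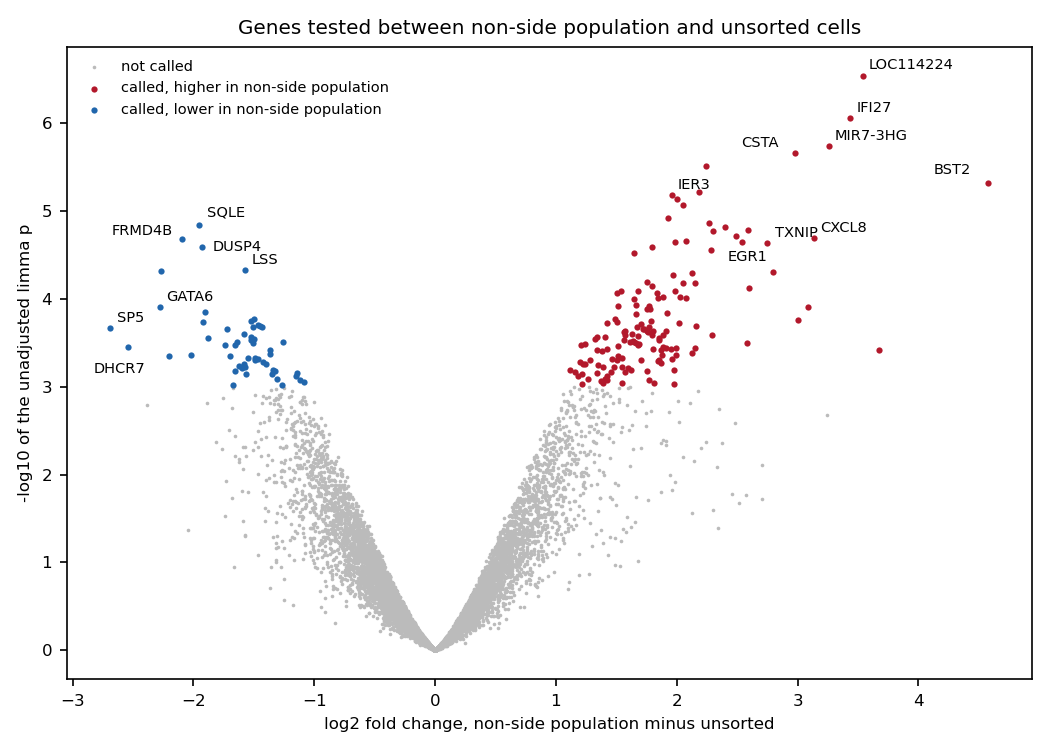
Each point is 1 of the 9888 genes tested, by log2 fold change (non-side population minus unsorted) and by -log10 of the unadjusted limma p. The 143 genes called higher are red, the 54 called lower are blue, and BST2 lies farthest to the right at 4.58.

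The count of calls rested on the unsorted arrays. By limma 0 genes passed without unsorted a (646 at an unadjusted p under 0.05, smallest adjusted p 0.0707) and 5 without unsorted b. It was 54 without non-side population a, 394 without b, 609 without c and 33 without d. Of the 30 genes named below as the largest changes, 18 were called without non-side population a, 14 without d, 29 of 29 tested without b, 30 without c, 0 without unsorted a and 3 without unsorted b (LOC114224, CXCL8 and ZNF493).

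**Figure D2:**
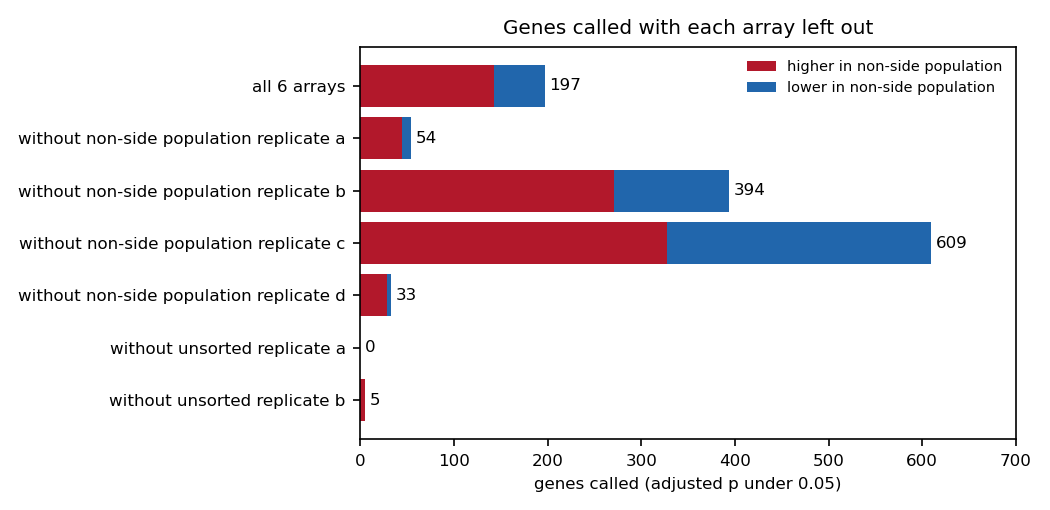
Bars give the number of genes called at an adjusted p under 0.05, red for higher and blue for lower in the non-side population, with all 6 arrays (197) and with each array left out. The count is 0 and 5 without unsorted replicate a or b, and 609 without non-side population replicate c.

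The largest increase was in BST2, or tetherin, a membrane protein that holds budding viruses at the cell surface. It read 1503.1, 3719.9, 5446.6 and 7564.9 in non-side population a to d and 189.6 and 130.6 in unsorted a and b. Every sorted array lay far above both unsorted arrays, replicate a least so, and the fold change was 4.58 ± 0.53 (adjusted p = 0.00791). LOC114224, a noncoding gene, had the smallest p: it read 978.7, 1076.6, 1157.9 and 1000.8 against 60.8 and 117.7 (3.54 ± 0.31, adjusted p = 0.00288). The sorted arrays were nearly level there, and the unsorted mean lay below the filter. CXCL8, which encodes the neutrophil attractant interleukin 8, read 692.5, 1261.1, 1627.9 and 1144.7 against 74.9 and 199.5 (3.14 ± 0.43, adjusted p = 0.00998). CSTA, the protease inhibitor cystatin A, rose by 2.98 ± 0.32 and CEACAM5, the carcinoembryonic antigen, by 2.60 ± 0.41. TXNIP, an inhibitor of thioredoxin and of glucose uptake, rose by 2.74 ± 0.38.

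The other increases among the largest 15 were in the interferon genes IFI44L, IFI27, IFI6 and IFI44, the noncoding genes MIR7-3HG (3.26 ± 0.34) and CCDC18-AS1 (2.58 ± 0.49), the zinc finger genes ZNF493 (3.09 ± 0.52) and ZKSCAN1 (2.54 ± 0.35), and NFATC2IP (2.59 ± 0.35). One of 4 other probe sets of NFATC2IP above the filter had the opposite sign. Of the 15, LOC114224, CXCL8, CSTA, IFI44L, MIR7-3HG, CCDC18-AS1 and ZNF493 averaged below the filter in unsorted cells and were tested through the sorted arrays. MIR7-3HG, IFI44L and CSTA averaged less in unsorted cells than the array medians, and ZNF493 read less than its array's median in unsorted a. With dim values set no lower than the median of their own array, a setting added after the results were seen, MIR7-3HG stood at 2.59, IFI44L at 3.32, CSTA at 2.94 and ZNF493 at 2.94.

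The largest decrease was in SP5, a zinc finger factor that Wnt signals induce. It read 351.9, 117.8, 434.7 and 445.4 in non-side population a to d and 2262.9 and 1708.2 in unsorted a and b (-2.69 ± 0.49, adjusted p = 0.028). The groups did not overlap, and replicate b was lowest. GATA6, a transcription factor of gut endoderm, read 1345.2, 1036.3, 1726 and 3039.4 against 7596.6 and 8426.2 (-2.28 ± 0.38, adjusted p = 0.0238). FADD, the adaptor that links death receptors to caspase 8, read 412.6, 390.4, 178.5 and 540.4 against 1560.8 and 1353.7 (-2.02 ± 0.40, adjusted p = 0.0324). DUSP4, a phosphatase of MAP kinases, fell by 1.93 ± 0.27 on the log2 scale. AMD1, which makes decarboxylated S-adenosylmethionine for polyamine synthesis, fell by 1.90 ± 0.33 and ID1, an inhibitor of basic helix-loop-helix factors, by 1.88 ± 0.35.

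The same set of 15 held the sterol enzymes DHCR7 and SQLE, the fatty acid synthase FASN (-1.74 ± 0.33), CENPB, which binds centromeric repeats (-1.72 ± 0.31), and TENM3, a neuronal adhesion protein (-2.27 ± 0.34). TMEM52B (-2.54 ± 0.49), FRMD4B (-2.09 ± 0.29) and KBTBD7 (-1.70 ± 0.34) fell as well. KBTBD7 averaged below the filter in the sorted arrays. MALAT1, an abundant nuclear noncoding RNA, was called lower from the probe set used (-1.92 ± 0.34, adjusted p = 0.028). Of its 11 other probe sets above the filter 7 had the opposite sign, up to 2.28, so no direction is given for the transcript.

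**Figure D3:**
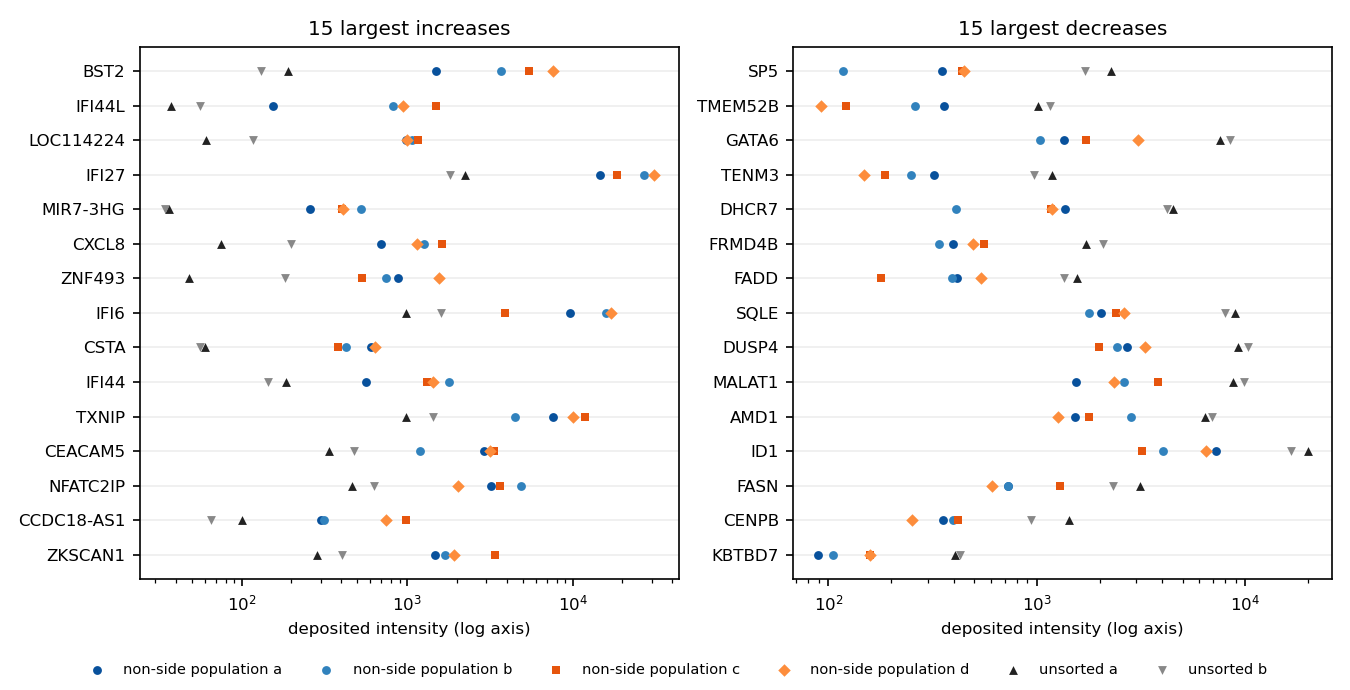
Each row is a gene and each symbol 1 array, at its deposited intensity on a log axis, with the 15 largest increases on the left and the 15 largest decreases on the right. In each row the circles, squares and diamonds of the non-side population lie to 1 side of both triangles of unsorted cells, as for BST2 at 1503.1 to 7564.9 against 130.6 and 189.6.

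Interferon-stimulated genes were higher as a group. Of 27 interferon response genes tested 6 were called higher and 0 lower, against 1.45% and 0.546% of all genes tested. Values were positive in 25, and the median was 0.93 against -0.02 for all genes tested. Of the 27, 3 averaged below the filter in unsorted cells. Of 29 list members measured, MX1 and TRIM22 lay below the filter and were not tested. MX1 read 23.6, 11.6, 95 and 81 against 83.8 and 43, and TRIM22 51.4, 82.3, 202.3 and 112.5 against 65.9 and 35.8. In 20 of the 27 every non-side population array lay above both unsorted arrays, against 15.2% of all genes tested. In 2, IFIT2 and OASL, every one lay below, against 16.6%. IFI27, a mitochondrial protein, read 14556.1, 26954.9, 18545.6 and 31091.6 against 2235 and 1808.7 (3.44 ± 0.33, adjusted p = 0.00433). IFI6, an inhibitor of apoptosis, read 9673.5, 16033.3, 3914.2 and 17034.3 against 986.3 and 1596.4 (3.00 ± 0.53, adjusted p = 0.028). IFI44L (3.67 ± 0.71), IFI44 (2.80 ± 0.42) and the scramblase PLSCR1 (1.24 ± 0.24) were the other called members besides BST2.

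The size of the interferon difference varied between the sorted arrays. The group median relative to unsorted cells was 0.52, 0.90, 1.34 and 1.41 in non-side population a to d, so it was 1.34 in the array with low 18S signal. The 4 members that follow were named after their values were seen. XAF1, a partner of XIAP, read 143.7, 381.7, 1530.7 and 1680.3 against 90.4 and 88.7, and the antiviral synthetase OAS2 156.5, 341.1, 2741.8 and 1435.9 against 132 and 90.4. Both were far higher in c and d than in a and b, and neither was called by limma (2.70 ± 0.82 and 2.58 ± 0.91, adjusted p = 0.12 and 0.173). ISG15, a ubiquitin-like protein, read 12675.4, 19876.2, 12551.9 and 23025.6 against 12050.6 and 11810.6, so replicates a and c lay close to unsorted cells. IFIT2 was at -1.08 ± 0.33 (adjusted p = 0.119). The number of members called was 0 without either unsorted array and 2 without non-side population d.

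The promoters of the called interferon genes carried the motif named for the pathway. The interferon-stimulated response element was searched on both strands as 2 copies of GAAA with any 2 bases between them, in the 250 bases before to 50 after each RefSeq start (GRCh38.p14), and overlapping matches were kept. Of 21 list members with a promoter entry 15 held it, among them each of the 6 called ones. It was present in 3.58% of all 35093 promoters, in 3.81% of the 8234 tested genes with an entry, and in 14 of the 116 called higher and 0 of the 46 called lower that had one. A match is a description of letters and not of binding. Promoters of 3 called members are shown because they differ in how many copies they hold and where, with the matches in capitals, 5' to 3' on the gene's strand: BST2 at chr19:17405581-17405880, minus strand; IFI27 at chr14:94110486-94110785, plus strand; IFI6 at chr1:27672143-27672442, minus strand.
BST2: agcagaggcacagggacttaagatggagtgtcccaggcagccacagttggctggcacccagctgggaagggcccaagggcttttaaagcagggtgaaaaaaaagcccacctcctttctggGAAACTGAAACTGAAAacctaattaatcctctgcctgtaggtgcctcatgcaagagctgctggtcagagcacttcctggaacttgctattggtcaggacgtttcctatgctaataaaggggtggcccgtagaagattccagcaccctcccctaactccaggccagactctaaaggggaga
IFI27: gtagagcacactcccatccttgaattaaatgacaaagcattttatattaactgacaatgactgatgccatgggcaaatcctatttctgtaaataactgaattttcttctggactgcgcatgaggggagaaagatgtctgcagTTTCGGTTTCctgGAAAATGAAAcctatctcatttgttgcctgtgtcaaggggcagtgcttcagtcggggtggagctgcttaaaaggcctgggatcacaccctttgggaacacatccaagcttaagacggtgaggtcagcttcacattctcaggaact
IFI6: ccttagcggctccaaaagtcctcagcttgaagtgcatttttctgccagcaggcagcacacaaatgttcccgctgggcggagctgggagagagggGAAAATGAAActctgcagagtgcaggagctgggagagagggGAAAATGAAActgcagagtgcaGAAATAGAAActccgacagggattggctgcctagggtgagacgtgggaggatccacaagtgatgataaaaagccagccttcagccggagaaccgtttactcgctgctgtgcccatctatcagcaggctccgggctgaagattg
BST2 held 2 overlapping matches, IFI27 held 2 and IFI6 held 3.

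Genes of MHC class I antigen presentation, a process that interferon also induces, were counted apart. Of 15 tested, 2 rose and 0 fell, against 1.45% and 0.546% of all genes tested, and the group median was 0.35. The 2 were PSMB9, an immunoproteasome subunit (1.89 ± 0.36, adjusted p = 0.0295), and HLA-C (1.80 ± 0.35, adjusted p = 0.0296). HLA-C read 6110.9, 15567.4, 10029 and 10846.5 against 3139.7 and 2659.4, so replicate b was highest. HLA-B was at 1.71 ± 0.40 (adjusted p = 0.0583). HLA class I genes are near-identical in part, and their probe sets can bind more than 1 of them.

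Cholesterol synthesis genes were lower in the non-side population. Of 19 tested members 5 were called lower and 0 higher, against 0.546% and 1.45% of all genes tested. Values were negative in 18, and the median was -0.89. Along the pathway, the early enzyme HMGCS1 was at -1.33 ± 0.31 (adjusted p = 0.0577) and MVD, which makes isopentenyl diphosphate, fell by 1.65 ± 0.32 on the log2 scale (adjusted p = 0.0292). SQLE, squalene epoxidase, read 2037.6, 1786.5, 2384.2 and 2605.1 against 8941.4 and 8012.2 (-1.95 ± 0.26, adjusted p = 0.00998). LSS, which closes the sterol rings, read 2132.5, 1872.6, 1955.7 and 1853.9 against 6229 and 5409.3 (-1.57 ± 0.24, adjusted p = 0.0162). Both sets of sorted arrays were tightly grouped.

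DHCR7, which completes cholesterol, read 1363, 409.6, 1171.1 and 1183.5 against 4477.9 and 4214.2 (-2.20 ± 0.44, adjusted p = 0.0327), with replicate b set apart. INSIG1, a sterol-regulated brake on SREBP, fell by 1.52 ± 0.27 on the log2 scale (adjusted p = 0.028). PMVK, SC5D and IDI1, named after their values were seen, were near 0, at 0.10, -0.02 and -0.16. The group median was -0.64, -0.87, -1.27 and -0.88 in non-side population a to d, lowest in the array with low 18S signal. No member was called by limma without unsorted a or without unsorted b, 1 was without non-side population d, 3 without a, and 7 without b or without c. In the neighbouring fatty acid pathway 1 of 7 tested genes was called, FASN, which read 727.2, 725.1, 1294.8 and 607.6 against 3129.8 and 2312.1. The group median was -0.63, with SREBF1, the SREBP factor of lipid synthesis, at -1.10 ± 0.39 (adjusted p = 0.17). The sterol regulatory element, searched as TCACNCCAC on both strands, was found in 0 of the 4 called cholesterol genes that had a promoter entry and in 1.13% of all promoters. Other spellings of this element were not searched.

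Immediate early genes were higher. Of 23 tested 5 were called higher and 0 lower, against 1.45% and 0.546% of all genes tested. Values were positive in 21, and the median was 0.94. EGR1, a zinc finger factor induced by growth signals, read 10316.1, 13699.3, 6651.7 and 12017.6 against 1434.8 and 2320.2 (2.49 ± 0.34, adjusted p = 0.00998). IER3, a stress-response gene, read 8510.3, 9748.4, 9846 and 10115.8 against 2535.6 and 2368.7 (1.96 ± 0.24, adjusted p = 0.00808). SRF, the factor that drives many of these genes, rose by 1.51 ± 0.29, the nuclear receptor NR4A2 by 1.63 ± 0.30 and ATF3, a stress-induced factor, by 1.11 ± 0.23. One of 2 other ATF3 probe sets above the filter had the opposite sign. FOS and JUN, the core of the AP-1 complex and named after their values were seen, were at 0.76 ± 0.26 and 0.67 ± 0.26 (adjusted p = 0.162 and 0.204). The group median was 0.91, 0.73, 1.13 and 0.82 in non-side population a to d. Members called numbered 0 without either unsorted array, and 2 without non-side population a or without d.

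EGR1 and SRF, 2 of the 3 called members with a promoter entry, held CArG boxes, the motif that SRF binds, found in 1.29% of all promoters and in 2 of 17 list members. Their promoters are shown with both copies of the motif in capitals, 5' to 3' on the gene's strand (GRCh38.p14): EGR1 at chr5:138465229-138465528, plus strand; SRF at chr6:43171019-43171318, plus strand.
EGR1: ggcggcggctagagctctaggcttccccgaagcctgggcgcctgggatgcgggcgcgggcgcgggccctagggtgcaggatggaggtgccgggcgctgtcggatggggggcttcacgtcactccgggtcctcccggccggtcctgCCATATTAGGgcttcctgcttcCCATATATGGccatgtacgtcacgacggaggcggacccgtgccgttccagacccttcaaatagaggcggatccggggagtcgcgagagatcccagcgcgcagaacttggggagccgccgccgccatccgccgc
SRF: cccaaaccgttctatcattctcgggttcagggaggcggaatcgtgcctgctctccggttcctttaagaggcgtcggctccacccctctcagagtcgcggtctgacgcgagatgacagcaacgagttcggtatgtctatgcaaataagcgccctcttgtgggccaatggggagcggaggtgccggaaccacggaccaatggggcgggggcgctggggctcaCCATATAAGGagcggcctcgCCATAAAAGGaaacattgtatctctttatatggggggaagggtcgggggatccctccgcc
Both genes rose, EGR1 by the larger value, and both held 2 copies.

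**Figure D4:**
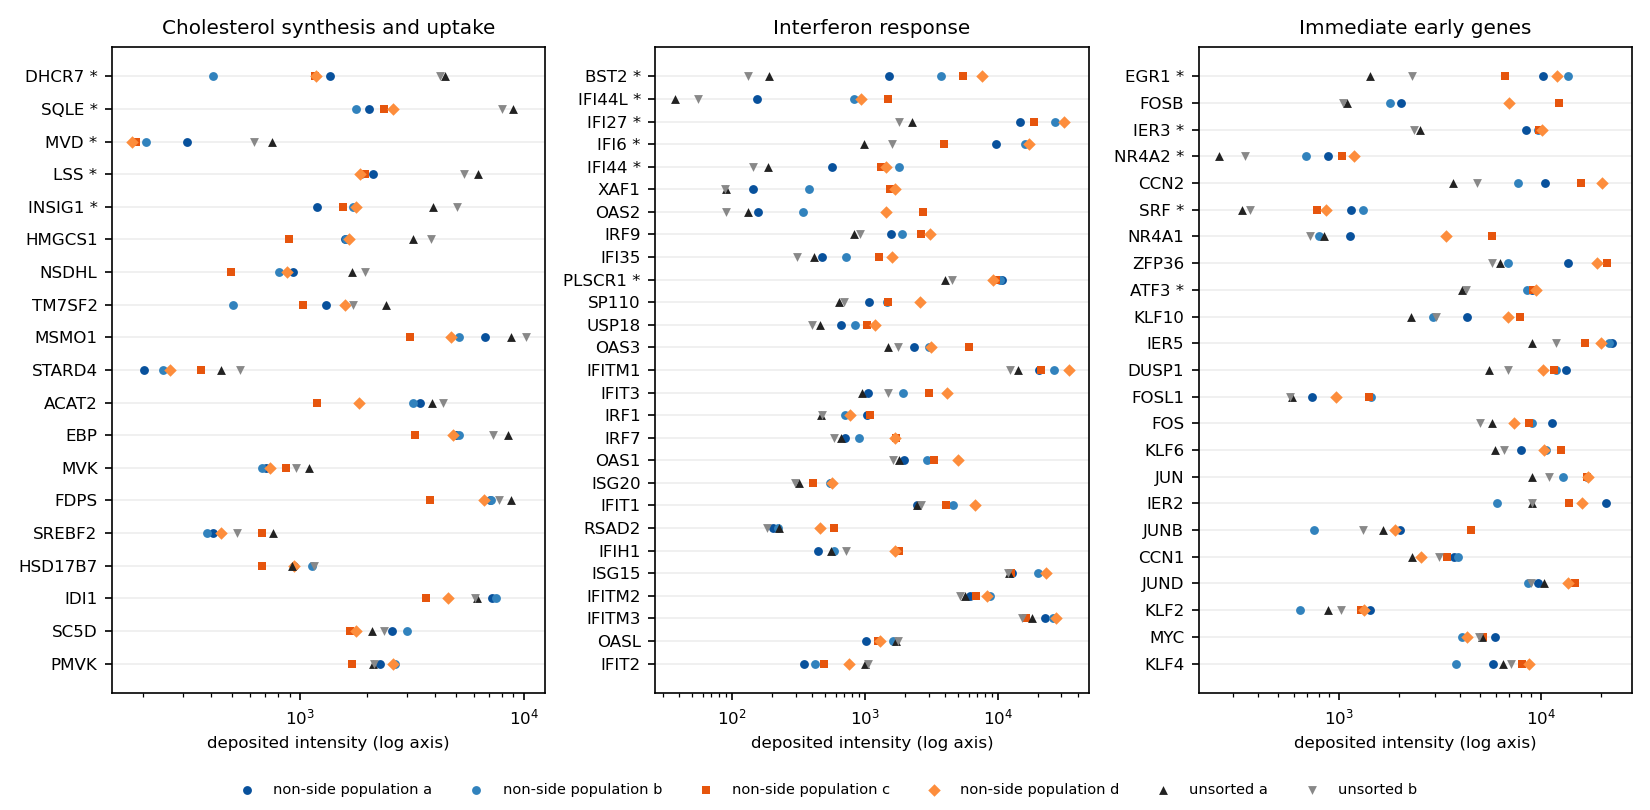
Deposited intensity on a log axis for each tested member of 3 gene groups, 1 symbol per array, ordered by fold change; an asterisk marks a called gene. Called cholesterol genes lie left of both unsorted arrays, and called interferon and immediate early genes lie right of them.

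Feedback genes of MAP kinase signalling went both ways. Of 14 tested, 3 rose and 1 fell, against 1.45% and 0.546% of all genes tested, and the median was 0.15. The Sprouty genes SPRY2 (1.49 ± 0.26, adjusted p = 0.028) and SPRY4 (1.42 ± 0.31, adjusted p = 0.0444), inhibitors of receptor kinase signalling, rose along with IER3. DUSP4 read 2701.6, 2412.7, 1994.1 and 3283 against 9219.5 and 10271.9. Its level in every sorted array was below both unsorted arrays. Of 16 receptor kinase and EGF ligand genes tested, 3 rose and 0 fell, against 1.45% and 0.546% of all genes tested. They were FGFR3 (1.57 ± 0.29), AXL (2.15 ± 0.41, or 1.84 with dim values set no lower than their array's median) and ERBB3 (1.48 ± 0.30). The 1 other FGFR3 probe set above the filter was at -0.28. AXL averaged below the filter in unsorted cells. ERBB3, a partner of ERBB2, read 2256.1, 2103.8, 3477.7 and 3757.1 against 976.7 and 1032.6.

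Developmental signalling genes were called in both directions. Of 10 Wnt feedback targets tested 2 fell and 0 rose, against 0.546% and 1.45% of all genes tested. They were SP5 and AXIN2, a negative regulator of beta-catenin that read 2357.7, 1971.7, 2252.7 and 2110.6 against 5547.1 and 4859.2 (-1.26 ± 0.24, adjusted p = 0.029). DKK1, a secreted Wnt inhibitor, read 13142.5, 11081, 4291.8 and 9030 against 30405.6 and 28257.6 and was not called (-1.76 ± 0.41, adjusted p = 0.0563). NKD1, a Wnt antagonist, was at 1.34 ± 0.35 (adjusted p = 0.0833) and the transcription factor SOX4 at 0.92 ± 0.32 (adjusted p = 0.167), with every sorted array above both unsorted arrays. Of 4 other SOX4 probe sets above the filter 2 had the opposite sign. The group median was -0.91, -0.92, 0.09 and -0.15 in non-side population a to d, so it was below 0 in a and b and near 0 in c and d. CTNNB1, which encodes beta-catenin, rose by 1.18 ± 0.25 (adjusted p = 0.0416), as did the Wnt receptor FZD4 by 1.45 ± 0.31 (adjusted p = 0.0389), 1 of 8 receptor genes tested. FZD4 averaged below the filter in unsorted cells. HES1, a target of Notch, read 1986.1, 2250.4, 1499.4 and 1759.3 against 6649.2 and 3954.7 (-1.47 ± 0.29, adjusted p = 0.0335). It was the 1 gene called of 16 in the Notch pathway, and NRARP, a feedback inhibitor of Notch, was at 1.17 ± 0.30 (adjusted p = 0.0752). ID1 was the 1 gene called of 9 in the BMP-SMAD group and read 7230.7, 4013.5, 3207.7 and 6465 against 19876 and 16636.4. Of 4 Hedgehog genes tested limma called 0, and 0 had an unadjusted p under 0.05.

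Among inflammatory genes few were called. Of 14 NF-kB targets tested, CXCL8 rose and NFKBIA, the inhibitor of NF-kB, fell (-1.15 ± 0.24, adjusted p = 0.0413), with a group median of -0.09. Over all genes tested 1.45% were called higher and 0.546% lower. SOD2, a mitochondrial superoxide dismutase, read 1999.9, 3142.2, 267.3 and 723.2 against 71.5 and 154.4 and was not called (3.25 ± 0.80, adjusted p = 0.0674). Its values in a and b were several times those in c and d. Of 4 acute-phase genes tested limma called 0 (2 at an unadjusted p under 0.05), with the fibrinogen chain FGG at 1.52 ± 0.35 (adjusted p = 0.0574). Their values were all positive with a median of 1.04, at 0.56, 0.59, 1.53 and 1.56 in non-side population a to d, and 2 of the 4 averaged below the filter in unsorted cells. Of 14 acute-phase genes measured, those below the filter went both ways when tested without it. TF was at -1.42, APOB at -0.74 and SERPINA1 at -0.27, and HP was at 1.27 and C3 at 0.40. FGB and SERPINA3 also lay below the filter. All of these were named after their values were seen. FGB read 278.2, 710.4, 235.4 and 280.9 against 5.4 and 26.4, and passed when tested without the filter (adjusted p = 0.0173). SERPINA3 read 109.4, 142.3, 337.7 and 392 against 13 and 15.9 (adjusted p = 0.0375 without the filter). Unsorted values of both lay under their array medians, and set no lower than those medians FGB differed by 2.39 and SERPINA3 by 1.74.

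Among nutrient and oxygen response genes, single members were called, against 1.45% higher and 0.546% lower over all genes tested. TXNIP read 7629, 4502, 11945.2 and 10070 against 991.8 and 1430.7, 1 of 12 alpha-arrestin and glucose response genes called, in a group with a median of 0.54. Its relative ARRDC3 was at 1.63 ± 0.42 (adjusted p = 0.076). Of 21 glycolysis and hypoxia genes DDIT4, an inhibitor of mTORC1, rose (1.85 ± 0.37, adjusted p = 0.0335) and EGLN3, an oxygen-sensing hydroxylase, fell (-1.57 ± 0.32, adjusted p = 0.0364). The 1 other EGLN3 probe set above the filter was at 0.002. AMD1 was the 1 called gene of 11 in polyamine metabolism. SAT1, which breaks polyamines down, read 30891.2, 32315.6, 22041.2 and 29814.7 against 13498.2 and 13840.3 and was not called (1.06 ± 0.26, adjusted p = 0.0704).

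Of 23 p53 targets 2 rose and 0 fell, against 1.45% and 0.546% of all genes tested. PMAIP1, which encodes the pro-apoptotic protein NOXA, read 9645, 7513.8, 7533.1 and 6995.8 against 1999.3 and 2128.4 (1.93 ± 0.25, adjusted p = 0.00998). GADD45A, a growth arrest gene, rose by 1.39 ± 0.29 (adjusted p = 0.0364). The group median was 0.18, and CDKN1A, the p53-induced cyclin kinase inhibitor, named after its value was seen, was at -0.40 ± 0.47 (adjusted p = 0.701). PMAIP1 was the 1 called member of 15 BCL2 family genes. FADD was the 1 called member of 15 death receptor genes, with CASP8 at -0.58 ± 0.28 (adjusted p = 0.307).

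Gastric and intestinal differentiation genes went both ways. Of 20 tested, CEACAM5 and TFF1 rose and GATA6 fell, with a median of -0.17, against 1.45% called higher and 0.546% lower over all genes tested. CEACAM5 read 2912.2, 1189.6, 3374 and 3180.1 against 339.6 and 477. TFF1, a mucosal trefoil peptide, read 1366, 2059.5, 1102.8 and 1208.4 against 468.7 and 499.6 (1.51 ± 0.30, adjusted p = 0.0326). Genes known for high levels in MKN45 cells had a median of 0.90 over 7 tested, with CEACAM5 alone called. That median was 0.90, -0.36, 1.42 and 1.19 in non-side population a to d, so replicate b was the array below unsorted cells. The 7 genes were split: 5 had positive and 2 negative values, down to -0.86. In 3 every sorted array lay above both unsorted arrays, against 15.2% of all genes tested. In 2 every one lay below, against 16.6%. Of 23 epithelial junction and keratin genes CTNNB1 alone was called, and it rose. Values were negative in 17, with a median of -0.22. In 7 every sorted array lay below both unsorted arrays, against 16.6% of all genes tested. In 3 every one lay above, against 15.2%. The lowest was JUP, at -1.155 ± 0.363 (adjusted p = 0.129 by limma).

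By RefSeq biotype 256 of the 9888 genes were long noncoding RNAs, of which 15 were called higher and 1, MALAT1, lower. The shares over all genes tested were 1.45% and 0.546%. Of those 15, 10 averaged below the filter in unsorted cells and were tested through the sorted arrays where they were high, so their number is no measure of noncoding genes as a class. CRNDE, expressed in many tumours, read 2440.5, 1842.6, 3649.8 and 2958.9 against 709.5 and 943.5 (1.68 ± 0.31, adjusted p = 0.0286). FTX, a noncoding gene of the X chromosome, rose by 1.84 ± 0.37. GABPB1-AS1 (1.98 ± 0.32), PSMD6-AS2 (2.16 ± 0.39), HNRNPD-DT (2.29 ± 0.42) and LINC00342 (2.00 ± 0.39) also rose. These were picked from the called genes after their values were seen. Probe sets of antisense and divergent genes lie near other genes, and the deposited values do not show which transcript they read.

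Cell cycle and housekeeping groups held few calls or none. By limma 0 of 47 G2/M and mitosis genes and 0 of 40 G1/S and replication genes were called, at medians of -0.08 and -0.04. At an unadjusted p under 0.05 there were 12 and 6, against 18.2% of all genes tested. PLK1, a mitotic kinase, was at -1.24 ± 0.32 (adjusted p = 0.0812). CENPB was the 1 called gene of 16 constitutive centromere proteins, against 0.546% called lower over all genes tested. Of 51 cytosolic ribosomal protein genes 49 had positive values and 0 were called (2 at an unadjusted p under 0.05), with a median of 0.20. That median was 0.38, 0.43, -0.38 and 0.44 in non-side population a to d. It was below 0 in replicate c alone, the sorted array with low 18S signal, and after quantile normalization 29 of 51 were positive with a median of 0.01. Without replicate c 21 of them were called higher. RPL27A read 4219.1, 4788.6, 300.9 and 1756.2 against 398.2 and 329.5.

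Oxidative phosphorylation (0 of 36 called, median 0.03) and mitochondrial ribosomal proteins (0 of 65, median -0.01) also read lowest in replicate c, at -0.42 and -0.58. Unadjusted p-values under 0.05 numbered 0 and 1. Calls were 0 as well for 19 heat shock, 31 amino acid and ER stress, 17 NRF2 and 11 replication histone genes, with 5, 8, 2 and 4 at an unadjusted p under 0.05 (18.2% over all genes). ASNS, asparagine synthetase, read 23229.6, 3644.5, 13781.6 and 18080.5 against 3134.6 and 2692.4, so it was near the unsorted level in replicate b and several times higher in the others (2.05 ± 0.60, adjusted p = 0.109). SLC7A11, the cystine transporter, was also lowest in replicate b, at 3817.6, 289, 2907.7 and 2480.4 against 341.8 and 426.2.

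**Figure D5:**
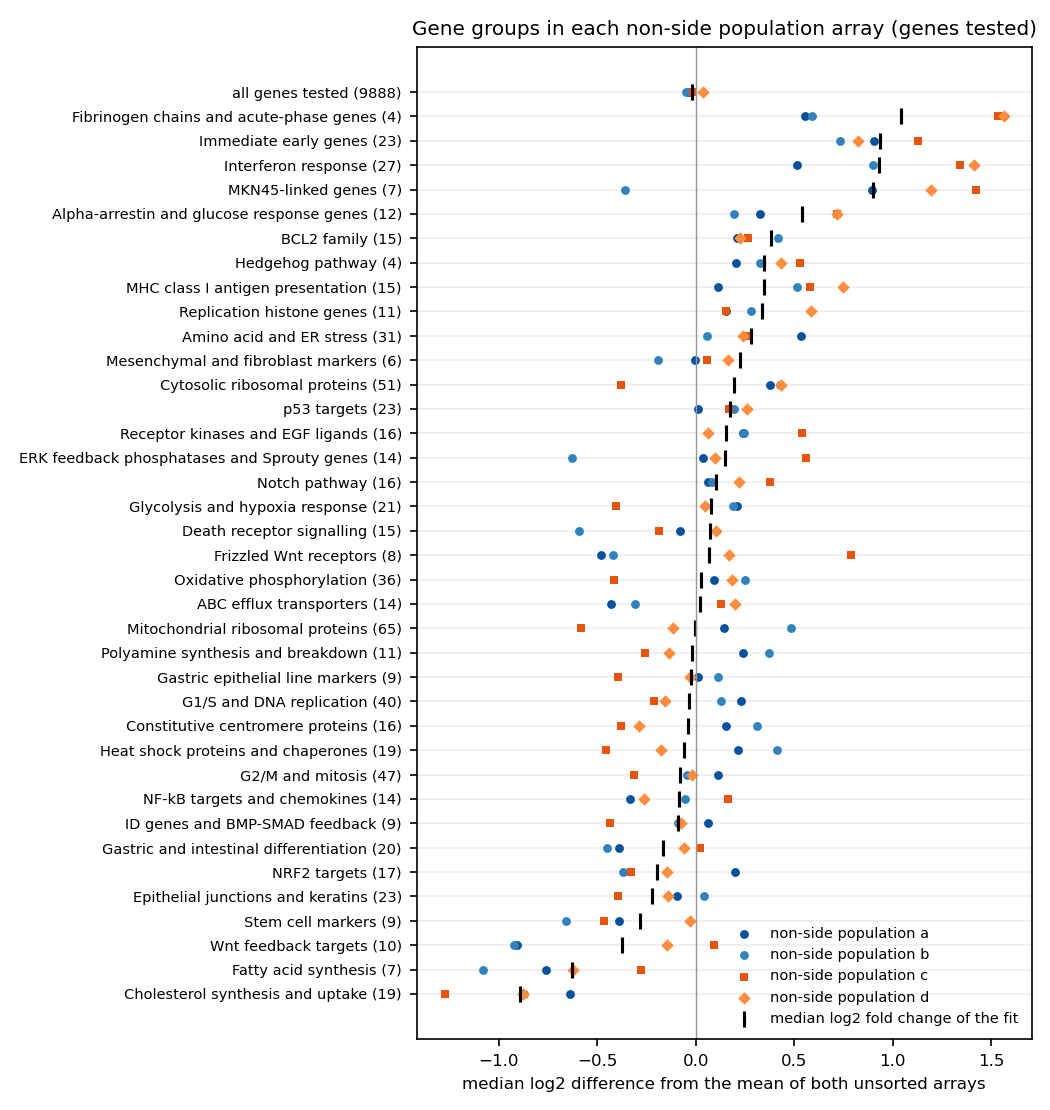
For each gene group, the median over its tested members of log2 intensity minus the mean of both unsorted arrays, 1 symbol per non-side population array, with the median fold change of the fit as a bar and the number of genes tested in brackets. Cholesterol genes lie between -1.27 and -0.64 in the 4 arrays, interferon genes between 0.52 and 1.41, and ribosomal proteins below 0 in replicate c alone.

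Stem cell and dye efflux genes were not called. Of 9 stem cell markers tested 0 were called (0 at an unadjusted p under 0.05) and 9 had negative values, with a median of -0.28. CD44 was at -0.21 ± 0.31, LGR5 at -0.42 ± 0.31 and SOX2, which read 486.4, 1218.2, 231.1 and 324.3 against 1136.1 and 973.1, at -1.18 ± 0.54. Of 14 ABC transporters tested 0 were called (5 at an unadjusted p under 0.05, against 18.2% of all genes), with a median of 0.02 and ABCC1 at 0.03 ± 0.33. ABCG2, the transporter most often tied to Hoechst efflux, lay below the filter at 82.3, 16.7, 117.9 and 171.5 against 105.1 and 85.5, and ABCB1 at 8 to 36.7 against 16.6 and 8.3. Of the genes that the study reported for side population cells, FZD7 was at 0.55 ± 0.27, HEY1 at 0.85 ± 0.33 and ADAM17 at 0.69 ± 0.26, and 0 of these 3 passed. The 1 other FZD7 probe set above the filter was at 0.007, and 1 of 2 others of ADAM17 had the opposite sign. SMO, the Hedgehog signal transducer, read 132, 204.1, 122.3 and 86.3 against 17.2 and 23.1, below the filter. Its unsorted values lay under their array medians, and set no lower than those medians it differed by 1.05. Tested without the filter the adjusted p was 0.0511. PROM1, which encodes CD133, read 0.8 to 26.6 against 33.5 and 20.7, and MSI1 read 4.2 to 22.1 against 9.1 and 3.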

How the data were processed

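RNA from gastric cancer lines, sorted for the non-side population or left unsorted, was hybridised to 1-colour human arrays, 1 sample per array. The authors deposited linear intensities per probe set. Each array's trimmed mean (2% off each end) was 500.065 to 500.095, so the arrays had been scaled to a common target. The submitters' processing notes name GCOS 1.4, with no role stated, so the summarising algorithm is unknown here. Arrays give no counts, and their number (4 and 2) limits the precision.

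Of 54675 probe sets, 41097 had 1 gene symbol, 1801 several and 11777 none in the platform annotation, and 41037 matched RefSeq. The log2 of intensity plus 6.1, the 10th percentile of all intensities, was fitted with limma 3.58.1 in R 4.3.3 (group means, eBayes with a trend, 4 residual degrees of freedom), with Benjamini-Hochberg adjustment over 9888 of 19775 genes. The added constant understates changes of dim genes. The procedure was tested on simulated data. The simulated noise was independent between genes and had the same spread in all of them. It therefore cannot show how the procedure handles array differences that many genes share. Side population arrays entered 1 alternative fit alone.

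Genes named are, in each direction, the 15 largest changes among called genes whose groups do not overlap, up to 6 members per gene list by smallest p, and 12 dye efflux and stem cell genes. Other genes given with values were chosen after their values were seen, among them the marker genes EPCAM and PTPRC. The comparison, the gene lists and the named genes were chosen with earlier results of these data known. Lists are described by counts and medians, with no set test. Alternatives changed the constant, the filter, the scaling, the probe set rule, eBayes, the arrays fitted and the replicate letter.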

Additional observations from a re-analysis of the deposited data

Results flagged for a closer look

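Among 74 sets of 4 non-side population values (named genes and gene group medians), 3 held an array far from the rest by Dixon's test. Chance gives about 1 in 20, so this count is no more than chance would give. CEACAM5 read 1189.6 in non-side population b and 2912.2 to 3374 in a, c and d. DHCR7 read 409.6 in non-side population b and 1171.1 to 1363 in the others. The median of the cytosolic ribosomal protein genes, relative to unsorted cells, was -0.38 in non-side population c and 0.38 to 0.44 in the others. Unsorted cells had 2 arrays and were not checked in this way.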

How the results depend on the processing

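With 4 arrays against 2, the number of genes called depended on which arrays entered. Of 197 calls, leaving out 1 array gave between 0 and 609. The count was 86 with the filter at the 75th percentile, 448 with every probe set tested, and 347 with all 10 arrays fitted. It was 2833 with non-side population a and b alone and 1674 with c and d alone. With the letter as a replicate block it was 3209 (1390 higher, 1819 lower). The share of calls that were higher, 72.6% with all 6 arrays, was 43.3% with the replicate block and 44.3% with a and b alone. The labels do not say that a shared letter pairs arrays. Deviations from the group mean correlated at -0.064 for the a arrays and 0.174 for the b arrays. The 2 unsorted arrays deviate by equal and opposite amounts, so these values cannot decide whether letters pair arrays. The other alternatives gave 144 to 265 calls, and quantile normalization 132 higher and 43 lower. The causes of these shifts were not tested. Signals near background limit what dim genes can show.

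Among the genes named or listed 15, none of them called, changed sign under at least 1 alternative. In each of the 197 called genes the groups do not overlap, so leaving out an array could not turn their sign. With the replicate block, and equally with a and b alone, ABCC1 was at -0.39, ACTA2 at -0.43, MUC1 at -0.46, SMAD6 at -0.012, BAMBI at 0.004, BMP2 at 0.03, ID3 at 0.065 and KRT8 at 0.013. With c and d alone CD44 was at 0.12, CENPU at -0.001, DISP1 at 0.49, OIP5 at -0.14 and SMURF1 at 0.37. After quantile normalization GLI2 was at -0.10 and HBB at -0.14. Leaving out 1 array gave -0.19 to 0.18 for ABCC1, -0.15 to 0.22 for ACTA2, -0.23 to 0.056 for BAMBI, -0.33 to 0.13 for DISP1, -0.072 to 0.37 for HBB, -0.038 to 0.20 for SMAD6 and -0.45 to 0.061 for SMURF1.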

Other observations

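Some called genes lay outside the gene groups, and those given here were picked after their values were seen. MDM4, an inhibitor of p53, read 2994.2, 2509.2, 3065.5 and 3402.7 against 555.7 and 762.8 (2.18 ± 0.26, adjusted p = 0.00808 by limma). BTG1, an antiproliferative gene, read 9438.2, 7865.1, 7132.2 and 7044.1 against 2595.3 and 2777.2 (1.54 ± 0.25, adjusted p = 0.0201). RGS2, which shortens G protein signals, rose by 2.08 ± 0.29, the clock gene PER2 by 1.79 ± 0.25 and NFIL3, a transcription repressor, by 1.67 ± 0.28. MAFF, a small partner of stress-induced leucine zipper factors, read 10608.7, 8455.3, 9564.2 and 10902.9 against 1965.5 and 3141.5, with the 4 sorted arrays close together. ERN1, which encodes the ER stress sensor IRE1, rose by 1.84 ± 0.30, and the cytokine gene IL11 by 2.27 ± 0.30, or 2.14 with dim values set no lower than their array's median. IL11, and IFI16 given next, averaged below the filter in unsorted cells.

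IFI16, a sensor of DNA, read 414.2, 667.5, 646.4 and 556.6 against 125 and 82.5 (2.40 ± 0.32, adjusted p = 0.00998), and UBE2L6, the conjugating enzyme for ISG15, read 2005.7, 2784, 3827.1 and 3820.4 against 992.7 and 816.8 (1.73 ± 0.31, adjusted p = 0.028). Among genes that fell was LGR4, a receptor for R-spondins, which read 945.6, 1214.3, 1287.5 and 1145.2 against 2769.4 and 3759.5 (-1.50 ± 0.26, adjusted p = 0.028). The adaptor DAB2 was at -1.45 ± 0.26 and the RNA helicases DDX20 and DDX28 at -1.52 ± 0.28 and -1.58 ± 0.29, and all 3 were called lower.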
